A study of Homo sapiens with 3 samples.

Results

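The genes described here are 9 markers of neuroendocrine cells, namely CHGA, CHGB, SCG2, SCG3, SCG5, SYP, INSM1, ENO2 and NCAM1, out of 33423 genes with a row in at least 1 of 3 Drop-seq libraries. The rule names them as markers and uses no measured value, but the set was chosen with earlier results of these data known. In Drop-seq, single cells are caught in droplets with barcoded beads, and each captured mRNA molecule carries a unique molecular identifier (UMI). LNCaP and VCaP are 2 established lines of human prostate cancer cells. Enzalutamide (ENZ), used in this disease, blocks androgen signalling. LNCaP–ENZ168 had been kept for 168 h in 10 µM ENZ and VCaP–ENZ48 for 48 h in 10 µM ENZ, while VCaP parental had been given the vehicle, 0.1% DMSO, for 48 h. Both lines carry an ENZ-sensitive label, and they were grown in different media with 10% serum. There was 1 library per group, so no difference has a replicate check, no test was made, and every interval below covers counting error only. LNCaP cells without ENZ were not analysed here.

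Neuroendocrine cells store peptides and amines in dense-core granules and release them on stimulation. Granins such as chromogranin A are the main soluble proteins of these granules, synaptophysin sits in the membrane of small vesicles, and INSM1 is a transcription factor needed for neuroendocrine differentiation. Prostate adenocarcinomas are luminal tumours, and some acquire neuroendocrine features under treatment that lowers androgen signalling, so these genes serve as markers of that change in tissue.

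The labels were checked against marker genes. All 10 luminal prostate markers exceeded 10 CPM (UMIs scaled to a common library total) in LNCaP–ENZ168 and VCaP–ENZ48, and 9 of 10 in VCaP parental. Of 6 basal epithelial markers DST alone exceeded 10 CPM, of 7 stromal markers LUM alone, and only in the VCaP libraries, and of 6 leukocyte markers none. A cell filter kept 944 cells of LNCaP–ENZ168, 997 of VCaP parental and 947 of VCaP–ENZ48, with medians of 5389, 17817 and 11224 UMIs per cell. Of the 1000 barcodes in each file, 212, 860 and 869 end in N instead of a base, and each library had 1 barcode that also occurs in another library.

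In the Gencode annotation of GRCh38, the granin genes are CHGA (chromosome 14, 92923150 to 92935285), CHGB (chromosome 20, 5911510 to 5925353), SCG2 (chromosome 2, 223596940 to 223602361), SCG3 (chromosome 15, 51681492 to 51721026) and SCG5 (chromosome 15, 32641676 to 32697098). The others are SYP (chromosome X, 49187815 to 49200218), INSM1 (chromosome 20, 20368104 to 20370949), ENO2 (chromosome 12, 6913745 to 6923698) and NCAM1 (chromosome 11, 112961275 to 113278436). CHGA, CHGB, SCG2 and INSM1 overlap no other annotated gene, so reads at these loci have 1 candidate gene. On the same strand, ENO2 overlaps LRRC23, SCG5 the readthrough gene ARHGAP11A-SCG5 and NCAM1 the gene RNU7-187P, so their counts are less certain. SCG3, SCG5, SYP and NCAM1 overlap genes on the other strand, whose part in the counts was not tested.

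RefSeq promoter windows (GRCh38.p14, 250 bases before to 50 after the start site) were searched for SCG3, SCG5, SYP and ENO2. The SCG3 window (chr15:51681253-51681552, plus strand) is shown because SCG3 was the leading marker of VCaP parental and because it holds 1 searched element. Capitals mark this match, TTCAGCACC, the first part of the element bound by the repressor REST, whose first base lies 8 bases after the start site.
SCG3: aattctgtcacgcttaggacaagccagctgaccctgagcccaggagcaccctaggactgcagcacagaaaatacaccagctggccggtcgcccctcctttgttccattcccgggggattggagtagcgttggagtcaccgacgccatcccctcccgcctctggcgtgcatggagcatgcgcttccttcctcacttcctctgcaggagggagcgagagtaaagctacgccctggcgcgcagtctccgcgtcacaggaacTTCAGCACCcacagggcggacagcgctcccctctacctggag
Of 35116 RefSeq promoter windows of this length, 0.376% hold TTCAGCACC on either strand. This element was not found in the windows of SCG5, SYP and ENO2. The cyclic AMP response element TGACGTCA, held by 1.85% of all windows, and TATAAA, held by 11.5%, were in none of the 4. A match describes letters in a window and is not evidence of a bound site.

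All 9 markers were detected in both VCaP libraries, and 5 of 9 in LNCaP–ENZ168. Together they gave 296 CPM in VCaP parental (95% interval 288 to 303, 5768 UMIs), 431 CPM in VCaP–ENZ48 (420 to 441, 6157 UMIs) and 26.9 CPM in LNCaP–ENZ168 (23.0 to 31.3, 170 UMIs). The 5 granins supplied 89.5% of these UMIs in VCaP parental and 92.3% in VCaP–ENZ48, but 1.76% in LNCaP–ENZ168. Among the marker UMIs, those of the VCaP libraries were thus mainly from granins, and those of LNCaP–ENZ168 mainly from ENO2. SCG3 and CHGB alone supplied 82.0% of the marker UMIs in VCaP parental and 80.6% in VCaP–ENZ48. At least 10 CPM was reached by 5 markers in VCaP parental, 6 in VCaP–ENZ48 and 1 in LNCaP–ENZ168.

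**Figure D1:**
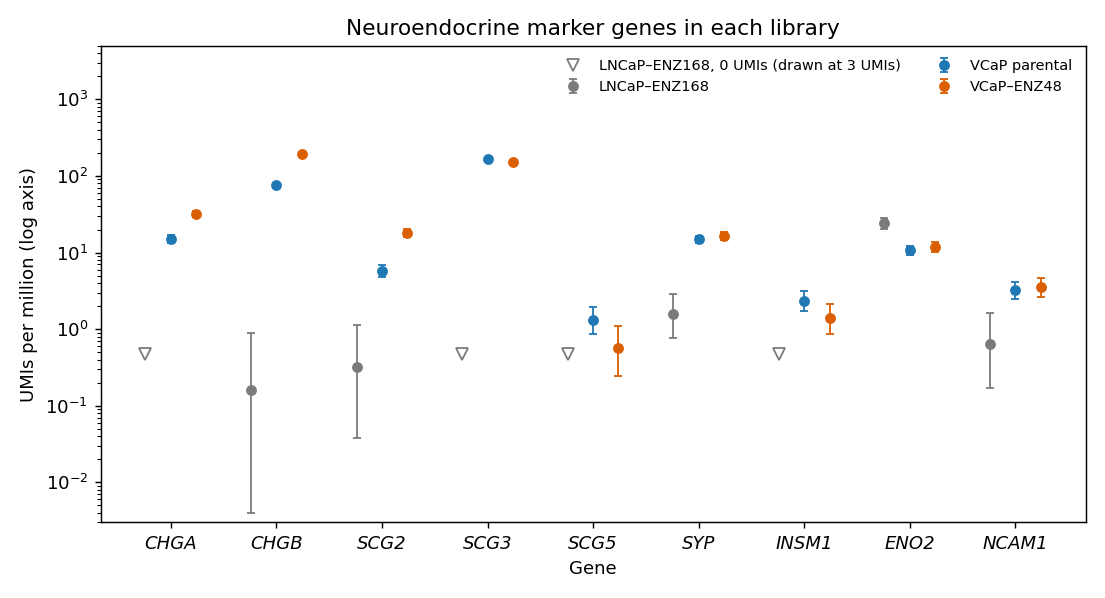
Level of each marker gene in CPM (vertical log axis) in the 3 libraries, with exact Poisson 95% intervals. Open triangles stand for 0 UMIs and are drawn at the level of 3 UMIs, which is 0.475 CPM. CHGA, CHGB and SCG2 are higher in VCaP–ENZ48 than in VCaP parental, SCG3 is at 167 and 154 CPM in VCaP parental and VCaP–ENZ48, and in LNCaP–ENZ168 only ENO2 exceeds 10 CPM.

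Drop-seq tags the 3′ end of each molecule, so CPM was not divided by gene length, although capture can still differ between genes. By CPM, SCG3 came first in VCaP parental at 167 (95% interval 161 to 173), followed by CHGB at 75.6 (71.8 to 79.6). CHGA at 15.1 CPM and SYP at 14.8 CPM came next, and their intervals overlapped. ENO2 at 10.7, SCG2 at 5.74 and NCAM1 at 3.23 CPM followed with intervals apart from each other. INSM1 at 2.36 CPM overlapped both NCAM1 and the last gene, SCG5, at 1.33 CPM.

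In VCaP–ENZ48 the first 2 places were exchanged. CHGB led at 192 CPM (185 to 199.7) and SCG3 came second at 154 CPM (148 to 161). CHGA followed at 32.2 CPM (29.3 to 35.2). SCG2 had moved above SYP, at 17.9 against 16.4 CPM, but these intervals overlapped. The last 4 places stayed with ENO2, NCAM1, INSM1 and SCG5, at 11.7, 3.50, 1.40 and 0.559 CPM.

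By their labels the VCaP libraries differ in treatment only, and the question of this pair is how 1 line responds to a short exposure to ENZ. The granins CHGB, SCG2 and CHGA were higher in the ENZ library, and no other marker compared was at least 2-fold apart. CHGB, a granin that is sorted into dense-core granules, gave 1476 UMIs in VCaP parental and 2751 in VCaP–ENZ48, or 75.6 and 192 CPM. This is a ratio of 2.54 (exact conditional 95% interval 2.39 to 2.71). SCG2, the precursor of secretoneurin, gave 112 and 256 UMIs, or 5.74 and 17.9 CPM, a ratio of 3.12 (2.49 to 3.93). CHGA, the precursor of vasostatin and other peptides, gave 294 and 460 UMIs, or 15.1 and 32.2 CPM, a ratio of 2.14 (1.84 to 2.48).

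SCG3, which binds chromogranin A and the granule membrane, did not share this direction. It gave 3254 UMIs in VCaP parental and 2209 in VCaP–ENZ48, or 167 and 154 CPM, a ratio of 0.926 (0.877 to 0.978). That small difference changed sign when mitochondrial and ribosomal protein genes were left out of the totals. The ratio of CHGB to SCG3 UMIs inside 1 library does not depend on the total. It was 0.454 (0.426 to 0.483) in VCaP parental and 1.25 (1.18 to 1.32) in VCaP–ENZ48, so the 2 granins changed unequally. SCG5, which encodes the chaperone 7B2 of a peptide-cleaving convertase, had 26 and 8 UMIs, a ratio of 0.420 (0.164 to 0.955), and lay under the minimum mean of 1 CPM.

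No marker outside the granin family was 2-fold apart between the VCaP libraries. SYP gave 14.8 CPM in VCaP parental and 16.4 CPM in VCaP–ENZ48, a ratio of 1.11 (0.930 to 1.32). ENO2, the neuronal form of the glycolytic enzyme enolase, gave 10.7 and 11.7 CPM, a ratio of 1.10 (0.894 to 1.36). NCAM1, the adhesion molecule CD56, gave 3.23 and 3.50 CPM, a ratio of 1.08 (0.732 to 1.60). INSM1 gave 46 and 20 UMIs, a ratio of 0.593 (0.332 to 1.02). All 4 intervals include a ratio of 1, and the bounds for INSM1 and NCAM1 leave room for a change of more than 1.5 times. Their directions were not stable, since the log2 ratio of CPM + 1 was -0.13 for SYP, -0.14 for ENO2 and -0.14 for NCAM1 with TMM scaling, and 0.069 for INSM1 and -0.41 for NCAM1 with only barcodes that end in a base, an alternative added after seeing the data.

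**Figure D2:**
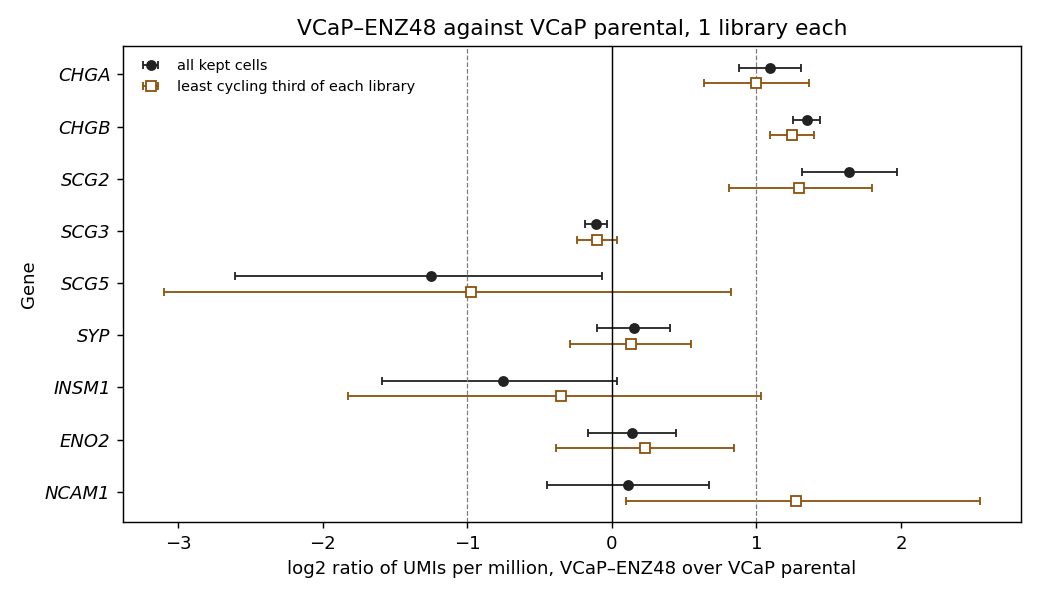
Log2 ratio of CPM, VCaP–ENZ48 over VCaP parental, for each marker over all kept cells (filled circles) and over the least cycling 315 and 332 cells of these libraries (open squares). Bars are exact conditional 95% intervals, which cover counting error only, and dashed lines mark 2-fold. CHGB and SCG2 lie above the upper 2-fold line in both sets of cells, CHGA lies on it in the least cycling cells, and SCG3 stays close to 0. On this axis, which leaves out the + 1, 2 markers with few UMIs also pass a line. NCAM1 lies above the upper line in the least cycling cells (10 and 19 UMIs, parental and ENZ). SCG5 lies below the lower line over all kept cells (26 and 8 UMIs).

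A marker was counted as at least 2-fold apart on the log2(CPM + 1) scale, among genes whose mean over both libraries reached 1 CPM. On this scale CHGA was at 1.05, CHGB at 1.34 and SCG2 at 1.49. Of 8 markers compared, 3 were higher and 0 lower, where 12.8% of all 15105 genes compared were higher and 4.63% were lower. With TMM scaling 2 markers, CHGB and SCG2, were higher and 0 lower, where 8.60% of all genes were higher and 8.47% lower. The median of the 8 markers was 0.13 and that of all genes was 0.17, and 3 markers lay above the latter. CHGA is the least secure of the 3. It fell short of 2-fold at 0.77 with TMM scaling, 0.83 with median-of-ratios scaling, 0.89 with a pseudocount of 5 CPM, 0.95 in cells of at most 15% mitochondrial UMIs and 0.96 in the least cycling cells. CHGB stayed between 1.05 and 1.47 and SCG2 between 1.09 and 1.65 over 13 alternatives.

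The VCaP libraries also differed in the cell cycle. Genes of the S and G2M phases made up 1.51% of the UMIs of VCaP parental and 0.286% of those of VCaP–ENZ48, and 35 of 43 S phase and 51 of 54 G2M phase genes were at least 2-fold lower in the latter. Cells were therefore ranked by this share within each library, and the lowest and the highest 332 cells of VCaP parental and 315 of VCaP–ENZ48 were taken as least and most cycling. The least cycling sets were not matched for this share, which was 0.312% in VCaP parental and 0.131% in VCaP–ENZ48. The former value exceeds the 0.286% of all VCaP–ENZ48 cells. Among the least cycling cells of both libraries, CHGB was at 89.0 CPM in VCaP parental and 211 CPM in VCaP–ENZ48, a log2 ratio of CPM + 1 of 1.24. SCG2 was at 9.11 and 22.4 CPM, a ratio of 1.21, and CHGA at 17.9 and 35.7 CPM, a ratio of 0.96. These log2 ratios were smaller than over all cells by 0.098 for CHGB, 0.28 for SCG2 and 0.086 for CHGA. NCAM1 was at 1.69 and 4.09 CPM in these cells, a ratio of 0.92, on 10 and 19 UMIs. Its counting interval, which leaves out the + 1, was 0.10 to 2.54.

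Within VCaP parental itself the same granins differed between cells of low and high cycling share. CHGA was at 17.9 CPM in the least and 10.9 CPM in the most cycling cells, a log2 ratio of CPM + 1 of 0.66 with a counting interval, which leaves out the + 1, of 0.27 to 1.16. CHGB was at 89.0 and 68.1 CPM, a ratio of 0.38 (0.20 to 0.57), and SCG2 at 9.11 and 5.60 CPM, a ratio of 0.61 (0.075 to 1.34). NCAM1 had the opposite order, with 1.69 CPM in the least and 6.04 CPM in the most cycling cells, a ratio of -1.39 (-3.00 to -0.82). SCG3 gave 166 and 169 CPM, a ratio of -0.026 (-0.15 to 0.098). In VCaP–ENZ48, CHGB and SCG2 kept this order at 0.23 (0.098 to 0.37) and 0.59 (0.15 to 1.10), and ENO2 was lower in the least cycling cells at -0.65 (-1.28 to -0.13). NCAM1 had 19 UMIs in each set there, a ratio of -0.10 (-1.12 to 0.87), so its order was not seen again. The median depths of these sets differed, at 16130 and 18477 UMIs in VCaP parental and 10858 and 9649 in VCaP–ENZ48, in the order least and most. SCG2 had 54 and 38 UMIs in the VCaP parental sets, and 1 VCaP parental cell held 15 of the 112 SCG2 UMIs of that library. Which set held that cell, if any, was not examined.

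The share of cells with a UMI depends on depth, so each cell was thinned to 2000 UMIs, which left 943 cells of LNCaP–ENZ168, 997 of VCaP parental and 917 of VCaP–ENZ48. As deposited, SCG3 was found in 90.7% of VCaP parental and 71.3% of VCaP–ENZ48 cells. At equal depth the shares were 26.4% (exact binomial 95% interval 23.7 to 29.2%) and 26.6% (23.8 to 29.6%), so the gap was absent at equal depth. CHGB, in contrast, was found in 13.4% (11.4 to 15.7%) of thinned VCaP parental cells and 30.9% (27.9 to 34.0%) of VCaP–ENZ48 cells, from 66.8% and 75.8% unthinned. CHGA was found in 2.61% (1.71 to 3.80%) and 5.13% (3.79 to 6.76%), and SCG2 in 1.00% (0.482 to 1.84%) and 4.25% (3.04 to 5.77%).

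**Figure D3:**
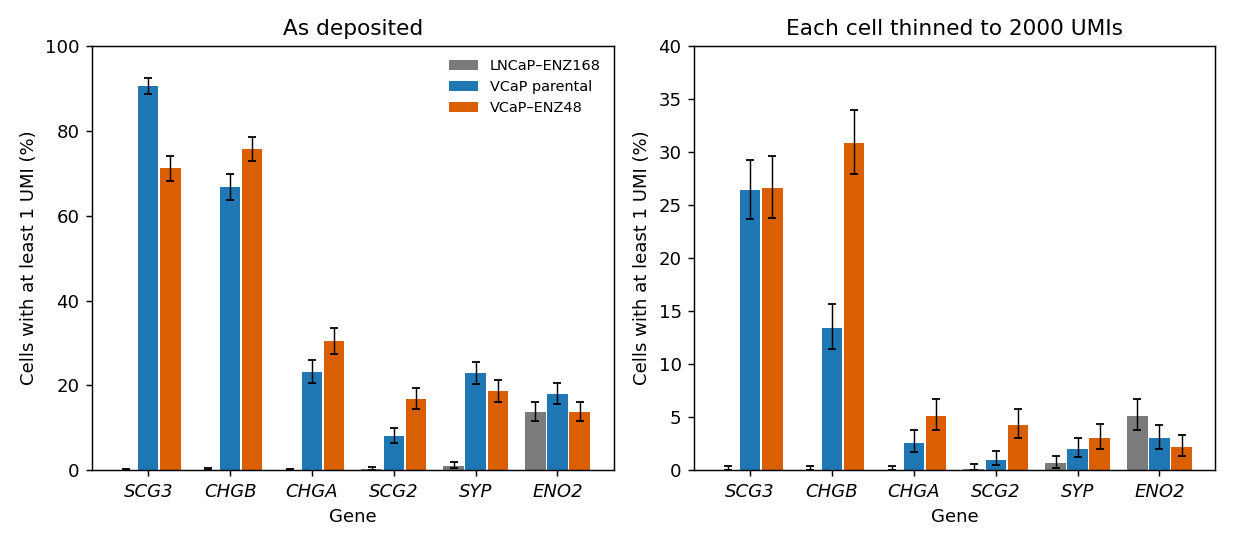
Percent of cells with at least 1 UMI of 6 marker genes in each library, in the counts as deposited (left, axis to 100%) and after each cell was thinned to 2000 UMIs (right, axis to 40%). Bars carry exact binomial 95% intervals. SCG3 differs between the VCaP libraries on the left, at 90.7% and 71.3%, and not on the right, at 26.4% and 26.6%, whereas CHGB differs on both sides.

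The remaining markers were found in few thinned cells. SYP was found in 2.01% of VCaP parental and 3.05% of VCaP–ENZ48 cells, and ENO2 in 3.01% and 2.18%. NCAM1 was found in 0.702% and 0.654%, INSM1 in 0.401% and 0.327%, and SCG5 in 0.301% and 0.109%. These pairs of intervals overlapped. No cell type that lacks these genes was present in a library, so the share due to free RNA was not measured.

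The counts of the granins CHGB and SCG3 were spread over many cells. Among all kept cells, the 10% with the most CHGB UMIs held 33.2% of its UMIs in VCaP parental and 35.4% in VCaP–ENZ48. For SCG3 these shares were 26.4% and 37.8%, and they were not corrected for the depth of each cell. The highest count of SCG2 in 1 cell was 15 of its 112 UMIs in VCaP parental and 20 of its 256 UMIs in VCaP–ENZ48. Without those 2 cells SCG2 stood at 4.97 and 16.5 CPM, which keeps the order of the libraries. After thinning, the variance of CHGB over its mean was 1.10 in VCaP parental and 1.24 in VCaP–ENZ48, and that of SCG3 was 1.05 and 1.07, where independent sampling from equal cells gives a value near 1.

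Co-detection asked whether the markers sit in the same cells. At least 1 marker was found in 41.8% (38.7 to 45.0%) of thinned VCaP parental cells and 56.9% (53.6 to 60.2%) of VCaP–ENZ48 cells. At least 2 were found in 7.32% (5.78 to 9.12%) and 14.6% (12.4 to 17.1%), and at least 3 in 0.702% and 1.53%. If each marker occurred independently at its own share, at least 2 would be found in 6.94% and 14.7% of cells. Both products lie inside the counting intervals of the observed shares, so no excess of cells with several markers was detectable at this depth. Unthinned, the shares with at least 2 markers were 78.9% and 72.4%, in the reverse order.

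**Figure D4:**
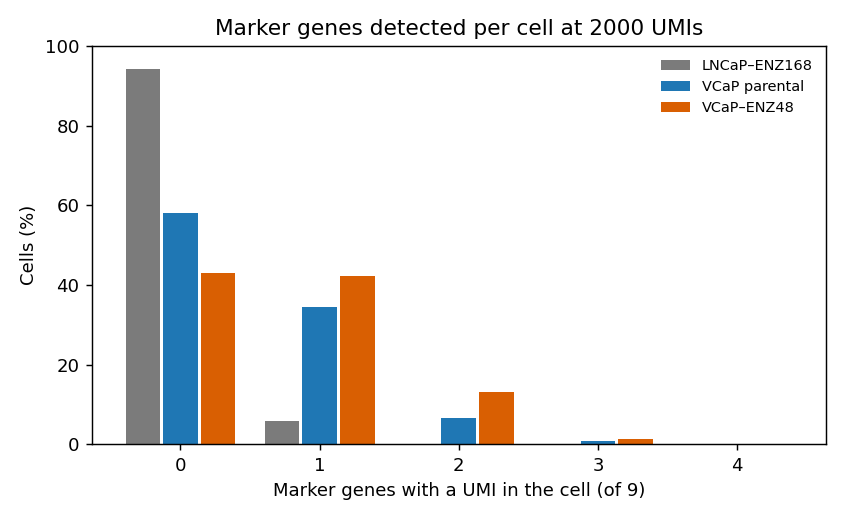
Percent of cells (vertical axis) by the number of the 9 marker genes with a UMI in the cell (horizontal axis), after thinning to 2000 UMIs. VCaP–ENZ48 has fewer cells with no marker (43.1%) than VCaP parental (58.2%) and LNCaP–ENZ168 (94.2%), and more cells with 2 markers (13.1%, 6.62% and 0%).

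Among 72 pairs of markers in the thinned cells of both VCaP libraries, the product of the shares lay outside the counting interval for 1. This was SCG3 with SYP in VCaP–ENZ48, found together in 2 cells against 7.45 from the product, while VCaP parental had 9 against 5.28. With this many pairs, 1 outside can arise from counting error alone. Many pairs had a product of less than 1 cell and 0 cells with both markers. The interval of 0 cells reaches 0.369% of cells in VCaP parental and 0.401% in VCaP–ENZ48. Such pairs could not show fewer shared cells than the product, so they do not test independence. CHGB and SCG3, the most abundant markers, were found together in 40 of 997 thinned VCaP parental cells, where the product of their shares gives 35.3 cells, and in 74 of 917 VCaP–ENZ48 cells, where it gives 75.3. CHGA and SCG3 were found together in 18 VCaP–ENZ48 cells against 12.5 from the product, and CHGA and CHGB in 16 against 14.5. Across the 947 unthinned VCaP–ENZ48 cells the counts of CHGB and SCG3 had a Pearson correlation of 0.59, and across the 917 thinned cells one of 0.038. The unthinned points share the depth of each cell. For SCG3 in both VCaP libraries and CHGB in VCaP–ENZ48, which had a UMI in at least 20% of thinned cells, no gene had a correlation of 0.2 or more, which is weak. The highest was B2M with CHGB in VCaP–ENZ48, at 0.17 over 917 cells, followed by LIMCH1 at 0.15 and DHRS7 at 0.14. For SCG3 the highest were LAPTM4A at 0.13, TM7SF2 at 0.12 and ELOVL4 at 0.12 in VCaP–ENZ48, and PIH1D1 at 0.12, MT-CYB at 0.10 and ZNF644 at 0.10 over the 997 cells of VCaP parental.

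LNCaP–ENZ168 and VCaP–ENZ48 are both ENZ-treated. Line, time, medium and library differ together and cannot be told apart. The granins were at or near 0. CHGA and SCG3 had 0 UMIs among 6313283, which allows up to 0.475 CPM, so CHGA was at least 67.7-fold and SCG3 at least 325-fold lower than in VCaP–ENZ48 by this floor. The exact conditional interval, which also takes in the error of the other count, gives lower bounds of 54.8 and 264. In cells, 0 of 944 allows up to 0.318% of cells with a UMI at this depth, which does not limit the share that expresses the gene. CHGB had 1 UMI, and its level in VCaP–ENZ48 was 1214 times higher with a counting interval of 218 to 47984. SCG2 had 2 UMIs, and its level was 56.5 times higher in VCaP–ENZ48 (15.5 to 469).

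SYP was low but present in LNCaP–ENZ168, with 10 UMIs in 10 cells and 1.58 CPM (0.760 to 2.91). In VCaP–ENZ48 it was 10.4 times higher (5.54 to 21.9). NCAM1 had 4 UMIs in LNCaP–ENZ168 and 50 in VCaP–ENZ48, where it was 5.52 times higher (2.03 to 21.0). SCG5 and INSM1 had 0 UMIs in LNCaP–ENZ168, and with 8 and 20 UMIs in VCaP–ENZ48 both lay under the minimum mean of 1 CPM. INSM1 was at least 2.94-fold lower by the floor, with a conditional bound of 2.18.

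ENO2 was the 1 marker with a higher level in LNCaP–ENZ168. It gave 24.2 CPM there (20.5 to 28.4), 10.7 CPM (9.26 to 12.2) in VCaP parental and 11.7 CPM (10.0 to 13.7) in VCaP–ENZ48. Over VCaP–ENZ48 the ratio was 2.06 (1.65 to 2.58), and on the log2(CPM + 1) scale it was 0.985, just short of 2-fold. It was at 0.48 with TMM scaling and at 1.14 with equal weight of cells. LRRC23, which overlaps ENO2 on the same strand, had the same order, with 17.6, 5.07 and 6.22 CPM, and its part in the ENO2 counts was not tested. In thinned cells ENO2 was found in 5.09% (3.78 to 6.69%) of LNCaP–ENZ168 cells, and 48 of the 55 LNCaP–ENZ168 cells with any marker had an ENO2 UMI. No thinned LNCaP–ENZ168 cell of 943 had 2 markers.

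Of 7 markers compared between these libraries, 6 were at least 2-fold lower in LNCaP–ENZ168 and 0 higher. Of all 16262 genes compared, 18.9% were lower and 32.1% higher. With TMM scaling the markers gave the same counts, and 24.9% of all genes were lower and 17.8% higher. The median of the markers was -3.84 on the log2(CPM + 1) scale, which is the value of SCG2, and that of all genes was 0.50. ENO2 was the 1 marker above the latter.

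Other genes of the pathway were described by lists. Of 19 genes of granule function and peptide processing compared between the VCaP libraries, 3 were at least 2-fold higher in VCaP–ENZ48 and 0 lower, where 12.8% of all genes were higher and 4.63% lower, so the share of higher genes is near that of all genes. Their median log2 ratio of CPM + 1 was 0.40, against 0.17 for all genes. CADPS, which primes dense-core granules for release, was at 10.8 CPM in VCaP parental and 56.6 CPM in VCaP–ENZ48, a ratio of 2.29. DDC, which makes dopamine and serotonin from their precursors, was at 26.95 and 120 CPM, a ratio of 2.12, and the calcium-binding protein gene SCGN at 87.7 and 211 CPM, a ratio of 1.26. Of 6 neuropeptide and hormone genes 3 were lower and 0 higher, beside 4.63% and 12.8% of all genes, with a median of -0.70. NPY was at 2212 and 110.1 CPM (-4.32), NMU at 81.7 and 8.88 CPM (-3.07) and GAL at 46.9 and 18.1 CPM (-1.33). These 3 peptide precursors were thus lower in the library in which CHGB, SCG2 and CHGA were higher.

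Of 9 neuroendocrine transcription factors and splicing regulators compared, 0 were higher and 1 was lower, which was RFX6, named after its value was seen, with 61 and 4 UMIs. Their median was 0.15. Beside each list count of this paragraph stand the same shares of all genes, 12.8% higher and 4.63% lower. REST and SRRM4 were not 2-fold apart and are given because the comparison with LNCaP–ENZ168 names them. REST, the repressor of neuronal genes, was at 21.0 CPM in VCaP parental and 36.8 CPM in VCaP–ENZ48, and SRRM4, a splicing factor that inactivates REST, at 12.3 and 16.99 CPM. Of 11 neuronal cytoskeleton and adhesion genes none was 2-fold apart in either direction, and the median was 0.0042, between log2 ratios of 0.99 for BEX2 and -0.92 for MAP2. Of 16 glycolysis genes, among them the other enolases, 1 was lower, LDHA, at 374 and 141 CPM, and the median was -0.053. Of 28 genes compared from the signature of neuroendocrine prostate cancer given with the study, which includes CHGA, SYP, ENO2 and INSM1, 3 were higher and 7 lower, with a median of -0.026. CHGA was among the higher, with SEZ6 (53 and 105 UMIs) and TOX (28 and 60 UMIs), which were named after their values were seen. The mitotic kinase gene AURKA (249 and 19.7 CPM, -3.60), the Polycomb genes EZH2 (59.1 and 9.16 CPM, -2.56) and PHF19 (39.3 and 7.97 CPM, -2.17) were among the lower, and the share of S and G2M phase UMIs was also lower in VCaP–ENZ48, as given above.

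Between LNCaP–ENZ168 and VCaP–ENZ48 the granule genes went both ways, with 7 of 20 higher and 7 lower in LNCaP–ENZ168 and a median of 0.46, where 32.1% of all genes were higher and 18.9% lower with a median of 0.50. The same shares of all genes stand beside each list count of this comparison. SYT4, a vesicle synaptotagmin, was at 361 CPM in LNCaP–ENZ168 and 25.9 CPM in VCaP–ENZ48, CPE, the carboxypeptidase that trims peptide hormones, at 106 and 12.7 CPM, and DDC at 832 and 120 CPM. SCGN and CADPS had 0 UMIs in LNCaP–ENZ168, at least 444.5-fold and 119-fold lower, and SYT7 was at 13.1 and 36.0 CPM. LNCaP–ENZ168 thus lacked detectable CHGA and SCG3 and carried transcripts of other granule genes.

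Among 9 regulators 4 were higher and 3 lower in LNCaP–ENZ168, with a median of -0.24. REST was at 128.5 CPM against 36.8 in VCaP–ENZ48, its corepressor gene RCOR1 at 31.8 against 11.1, and HES6 at 15.8 against 0.420. SRRM4 and its relative SRRM3 had 0 UMIs in LNCaP–ENZ168, at least 35.8-fold and 43.3-fold lower. SOX11 (17 and 1 UMIs) completed the higher and NKX2-2 (1 and 50 UMIs) the lower, both named after their values were seen. Of 10 neuronal cytoskeleton and adhesion genes 2 were higher and 7 lower, with a median of -2.91. NCAM2, the relative of NCAM1, was at 807 CPM in LNCaP–ENZ168 and 1.54 CPM in VCaP–ENZ48, the opposite order to NCAM1, and BEX2 at 163 and 15.8 CPM. UCHL1 was at 0.950 and 109 CPM, NEFM had 0 UMIs and was at least 52.7-fold lower, and INA had 1 UMI against 569.

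Of 4 neuropeptide genes, with a median of -1.26, 2 were lower, NPY with 0 UMIs, at least 232-fold, and NTS at 2.22 against 15.7 CPM. Of 16 glycolysis genes 9 were higher in LNCaP–ENZ168 and 0 lower, and their median was 1.05, so ENO2 at 0.985 lay near the median of that list. ALDOC was at 135 against 22.6 CPM, ENO3 at 17.1 against 2.52 CPM and LDHA at 556 against 141 CPM. Of 25 genes of the neuroendocrine signature 4 were higher and 13 lower, with a median of -1.11. EZH2 (62.1 against 9.16 CPM), APLP1 (29.5 against 3.99 CPM) and CCDC88A (48.0 against 13.1 CPM) were the largest among the higher, DNMT1 (122 against 49.6 CPM), named after its value was seen, was the other, and INA, CHGA and SRRM4, given above, among the lower.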

How the data were processed

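The authors processed the Drop-seq reads of 3 libraries with the Drop-seq tools pipeline at default settings, with an expectation of 1000 cells per sample, alignment by STAR to GRCh38 and Gencode annotation. What they deposited are unnormalized counts of UMIs for each gene in each barcode. The authors describe a filter of cells by genes, molecules and mitochondrial share for single-cell samples. Its use on these libraries and its thresholds for them are not given in the sources used here. A gene without a row was counted as 0. Positions come from Gencode v44 on GRCh38. Promoter windows are given for SCG3, SCG5, SYP and ENO2, and those of the other members are not reported here.

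Barcodes with fewer than 300 genes or 500 UMIs, or with over 25% mitochondrial UMIs, were left out, and doublets were not removed. UMIs were summed per library and given as CPM. Ratios used CPM + 1 where stated and otherwise the counts per library total. Intervals are exact at 95% (Poisson, conditional or Clopper-Pearson), and a count of 0 allows 3. UMI intervals cover counting error only. With 1 library per group no test was made. Shares were taken after thinning each cell to 2000 UMIs without replacement. Least and most cycling cells were those with the lowest and highest share of S and G2M phase UMIs (314, 332 and 315 cells each, in the order of the totals below). Of each list, up to 3 genes each way with the largest log2 ratio were named, if 2-fold apart or more and at 10 CPM or more in a library of the pair, and exceptions are marked. Likeness was the Pearson correlation of thinned counts with genes found in at least 10% of cells.

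The members and lists were chosen with earlier results of these data known. Library totals were 6313283 UMIs in LNCaP–ENZ168, 19515202 in VCaP parental and 14301287 in VCaP–ENZ48. The signs and intervals of the ratios and the thinning were tested on simulated data. Python 3.11.15, numpy 2.4.6, pandas 2.3.3, scipy 1.17.1, matplotlib 3.10.9, R 4.3.3 and edgeR 4.0.16 (for TMM factors) were used.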

Additional observations from a re-analysis of the deposited data

Results flagged for a closer look

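The barcodes that the cell filter left out also held marker UMIs. In VCaP–ENZ48 the 53 such barcodes, 52 of which had over 25% mitochondrial UMIs, held 179 marker UMIs, or 735 CPM, against 431 CPM in the kept cells. CHGB made up 86 of them, in 38 barcodes, SCG3 62 and CHGA 20. In VCaP parental 3 barcodes held 13 marker UMIs. In LNCaP–ENZ168 the 56 barcodes held 0 marker UMIs among 200140.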

How the results depend on the processing

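No paired analysis was possible because there is 1 library per group. In all 15 alternatives the number of markers at least 2-fold apart between the VCaP libraries was within 1.5 times of 3, but CHGA left the count under several, as given above. TMM scaling moved the median of all genes from 0.17 to -0.075 for the VCaP pair and from 0.50 to 0.0029 for LNCaP–ENZ168 over VCaP–ENZ48, and the share of higher genes among those 2-fold apart from 73.5% to 50.4% and from 63.0% to 41.6%. Under it the median of the markers for the VCaP pair was -0.14. With a minimum mean of 10 CPM that median was 0.59, and between LNCaP–ENZ168 and VCaP–ENZ48 there were 3 markers apart with a median of -6.17. That second median was -4.49 and -2.11 with pseudocounts of 0.5 and 5 CPM and -2.75 with no minimum. Of ratios whose interval excluded 0, SCG3 changed sign between the VCaP libraries, to 0.019, when mitochondrial and ribosomal protein genes were left out of the totals.

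The share of cells with at least 2 markers depends on the thinning depth. In VCaP parental and VCaP–ENZ48 it was 2.01% and 4.75% at 1000 UMIs, 22.7% and 38.2% at 4000 UMIs, and 78.9% and 72.4% without thinning. Using only barcodes that end in a base, an alternative chosen after seeing the data, gave 9.42% in VCaP parental. With these barcodes the log2 ratio of CHGA was 1.47 and that of CHGB 1.13, against 1.05 and 1.34. Of the CPM, ratios and shares of single markers, 615 values stayed inside the counting interval, 185 moved outside it and 1, the SCG3 ratio above, changed sign, and the cause was not tested. Depth limits INSM1, SCG5 and NCAM1 most, and LNCaP–ENZ168, which has the fewest UMIs.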
